A study of Solanum lycopersicum with 24 samples.

Results

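The genes described are 6 regulators that head the heat stress response of tomato (Solanum lycopersicum). They are the heat stress transcription factors HsfA1a, HsfA1b, HsfA1c, HsfA1e and HsfA2, and MBF1c, also called ER24, a transcriptional coactivator. They were chosen by gene identifier out of the 35768 identifiers in the tables, and all 6 were listed. Of these, 5 had reads and were tested, and MBF1c had none. The names belong to the choice of genes, because neither the tables nor the reference gene list pairs identifiers with names. The identifiers are Solyc08g005170.3 for HsfA1a, Solyc03g097120.3 for HsfA1b, Solyc08g076590.3 for HsfA1c, Solyc06g072750.3 for HsfA1e, Solyc08g062960.3 for HsfA2 and Solyc01g104740.3 for MBF1c.

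Messenger RNA was sequenced from anthers of the dwarf cultivar Micro-Tom in 24 libraries, 4 for each of 6 groups, to characterise how pollen aborts in prolonged heat. In the control groups (CT) the day temperature was 25 °C, the night temperature 19 °C and the relative humidity 50%. In the long-term mild heat groups (LTMH) plants were moved when they flowered to 34 °C in the day, 28 °C in the night and 68% humidity. Anthers were taken at the tetrad stage after 4 days, at the free microspore stage after 6 days and at the polarized microspore stage after 8 days, about 5 hours into a 12-hour light period. Temperature changed together with humidity, and stage together with the length of the treatment, so these cannot be told apart. Each library held 6 pooled anthers, and whether the 4 libraries of a group are from different plants is not stated in the labels. P-values therefore measure the spread between these samples, which may be technical.

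Heat stress transcription factors bind heat shock elements in promoters and switch on chaperone genes. Proteins of the HsfA1 group are made without stress, are held inactive by chaperones such as HSP70 and HSP90, and are released when unfolded proteins draw those chaperones away. HsfA2 is a target of HsfA1 whose protein builds up during heat, joins HsfA1 as a coactivator and prolongs the response. In tomato it is known for its part in the heat tolerance of developing pollen. MBF1c is known from Arabidopsis as a heat-induced coactivator needed for tolerance of high temperature.

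Library totals ranged from 15657765 to 22987661 reads, and 23457 to 25550 genes had at least 1 read. The most alike pair within a group was tetrad CT replicates 1 and 2, with a chi-square per degree of freedom of 4.43. The pair that came next, polarized microspore CT replicates 1 and 2, had 10.5, and the other tetrad CT pairs had 35.7 to 52.5. Tetrad CT replicates 1 and 2 differed by more than sampling noise and were kept as separate samples. A list of 8 identifiers put together from general knowledge for stamen and tapetum had reads in all 8, with a summed level of 2674 to 3341 FPKM in tetrad CT, 2934 to 3402 in tetrad LTMH, 3291 to 3691 in free microspore CT, 3461 to 3673 in free microspore LTMH, 4372 to 5288 in polarized microspore CT and 4105 to 4359 in polarized microspore LTMH. Single identifiers chosen the same way for ovule and for leaf stayed at or below 1.42 and 0.549 FPKM in every library. A single identifier for late pollen had up to 0.277 FPKM in tetrad CT and up to 0.122 in tetrad LTMH. It had 0.133 to 1.35 FPKM in free microspore CT and 0.0657 to 2.13 in free microspore LTMH. In polarized microspores it had 0.192 to 95.8 FPKM in CT and 1.06 to 13.2 FPKM in LTMH. The part of this spread in the results, stage differences included, was not tested. The names behind these lists could not be checked, so the labelled tissue rests on the labels.

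Levels are given as the authors' deposited FPKM, a read count divided by gene length and library total, so that genes of different length can be set side by side. HsfA1a was the most abundant of the regulators in 24 of 24 libraries, at 8.89 to 16.1 FPKM with a median of 13.4. HsfA2 followed with a median of 8.27 FPKM and a range of 2.36 to 12.5. HsfA1b had a median of 6.51 FPKM, HsfA1c of 3.40 and HsfA1e of 3.03. The gene lengths behind these values were 2083 bases for HsfA1a, 2162 for HsfA1b, 2813 for HsfA1c, 2094 for HsfA1e and 2433 for HsfA2. Reads per library ran from 63 for HsfA1c to 700 for HsfA1a.

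**Figure D1:**
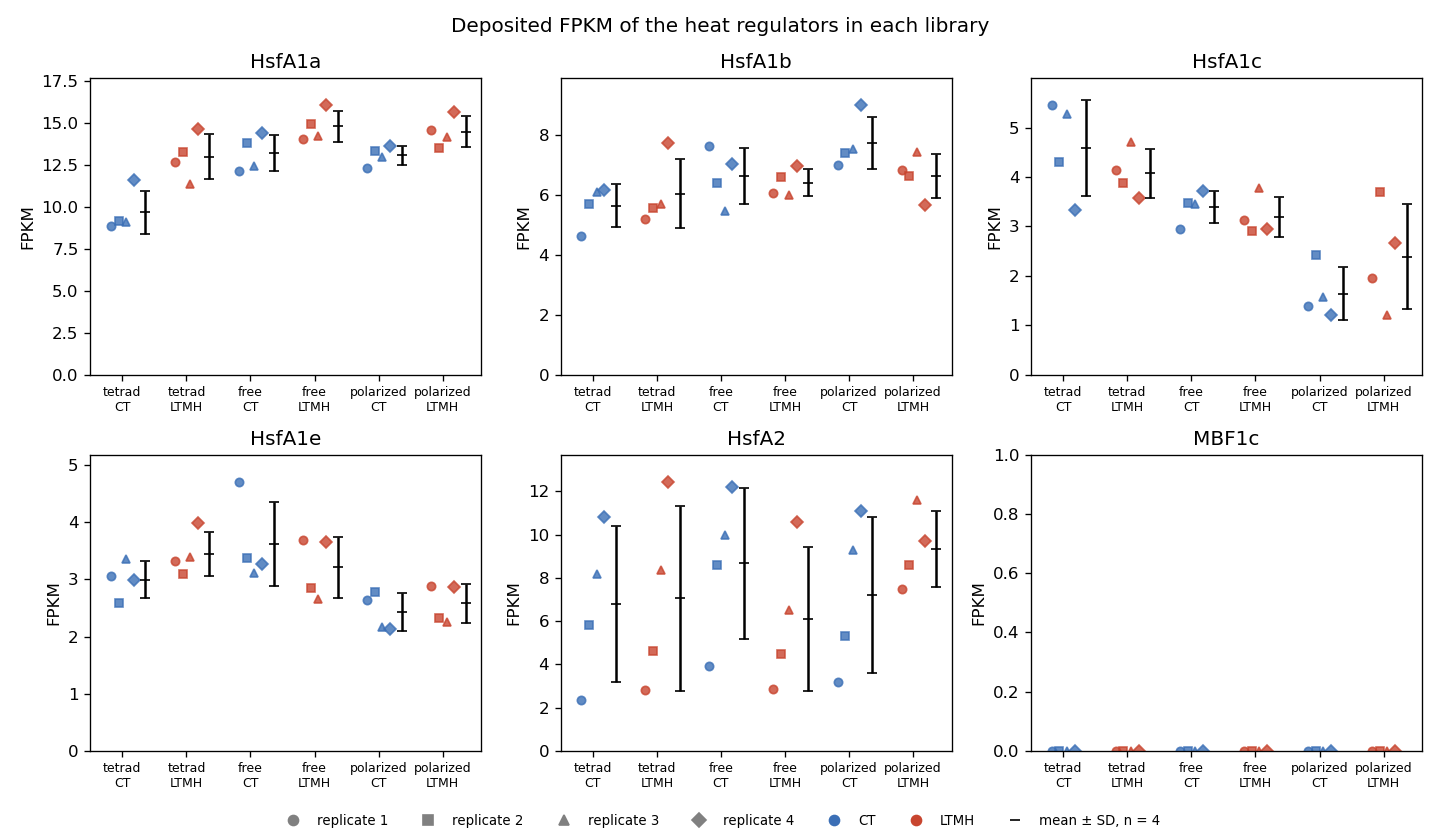
FPKM (y axis, starting at 0, with its own scale per panel) of each regulator in the 6 groups (x axis). Points are libraries, shaped by replicate number and coloured by temperature, and black bars are the mean ± SD of 4 libraries; HsfA1a lies lowest in tetrad CT, HsfA1c lowest in polarized microspore CT, HsfA2 spreads 1.55-fold to 4.57-fold within groups, and MBF1c is at 0 throughout.

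MBF1c had 0 reads in every library. Over all 437660207 reads of the series, a count of 0 allows a level of up to 0.00685 CPM (3 counts of the total), and in single libraries of up to 0.131 to 0.192 CPM (counts scaled to a common library total), for counting error only. The identifier was 1 of 6727 (18.8%) with no read in any library. In identifier order, its neighbours Solyc01g104730.2 and Solyc01g104750.3 had 194 and 3298 reads over the 24 libraries. No heat or stage difference can be given for MBF1c, and how the authors' counting treated this locus was not tested. The RefSeq gene list holds a gene with the symbol ER24 and the synonym MBF1 on chromosome 1, and a separate gene with the symbol MBF1c on chromosome 7, and it links neither to an identifier of the tables.

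HsfA1a, described in tomato as the master regulator of the heat response, was the regulator that passed a test for heat. At the tetrad stage its 4 CT libraries had 8.89, 9.15, 9.08 and 11.6 FPKM, and its 4 LTMH libraries had 12.7, 13.3, 11.4 and 14.6 FPKM. The groups overlapped through 1 CT library, replicate 4, which lay above the lowest LTMH library. The mean rose from 9.68 ± 1.29 to 13.0 ± 1.34 FPKM (SD, n = 4 each). The edgeR quasi-likelihood test over counts gave a log2 change of 0.26 ± 0.07 SE, a 1.20-fold rise (95% interval of the log2 change 0.11 to 0.42, adjusted p = 0.0161 over 21429 genes). The ratio of FPKM means was larger, at 1.34, and limma on log2(FPKM + 0.1) gave a log2 change of 0.42, on a scale where the median of all genes stood at 0.14. The TMM factors, which the fit uses and FPKM does not, lay between 0.884 and 0.970 in tetrad CT and between 0.993 and 1.08 in tetrad LTMH. The call was lost without tetrad CT replicate 1 (log2 change 0.23, edgeR adjusted p = 0.0541), without tetrad CT replicate 2 (0.24, edgeR adjusted p = 0.0523) and without tetrad LTMH replicate 4 (0.24, edgeR adjusted p = 0.0551). It was also lost in an edgeR fit of the 8 tetrad libraries alone (0.31, adjusted p = 0.0569). Tetrad CT replicates 1 and 2 are the most alike pair named above, so n = 4 may overstate the separate samples in tetrad CT. In bulk anthers, here and in the values that follow, fewer cells of a type and less RNA per cell cannot be told apart.

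At the free microspore stage HsfA1a had 12.1, 13.8, 12.5 and 14.4 FPKM in CT and 14.1, 14.9, 14.2 and 16.1 FPKM in LTMH. At the polarized microspore stage it had 12.3, 13.4, 13.0 and 13.6 FPKM in CT and 14.6, 13.5, 14.2 and 15.7 FPKM in LTMH. LTMH means were the higher at these stages too, but the groups overlapped and neither difference passed the test. The log2 changes were 0.10 ± 0.07 SE (95% interval -0.06 to 0.25, edgeR adjusted p = 0.449) and 0.14 ± 0.07 SE (95% interval -0.02 to 0.29, edgeR adjusted p = 0.218). Averaged over the 3 stages, HsfA1a rose by a log2 change of 0.17 ± 0.04 SE, or 1.12-fold (edgeR adjusted p = 0.00442). This call held without any single library (adjusted p 0.00117 to 0.00947). The heat effect on HsfA1a was not shown to differ between stages (edgeR adjusted p = 0.625, 0.959 and 0.511).

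Of the 5 tested regulators, 1 was higher and 0 were lower in LTMH at the tetrad stage, where the same test called 21.2% of all genes, 8.23% higher and 12.9% lower. Under upper-quartile scaling 2645 of 4753 calls at that stage were higher, against 1763 of 4537 here. At the free microspore stage 0 of 5 were called against 8.82% of all genes, and at the polarized microspore stage 0 of 5 against 19.0%. At these stages 0 of the 5 also had an unadjusted edgeR p below 0.05, and DESeq2 and limma called 0. For the mean over stages 1 of 5 was called, against 36.9% of all genes (16.7% higher, 20.2% lower). Upper-quartile scaling turned that balance too, with 4579 of 7986 calls higher against 3586 of 7912, and at the free microspore stage with 1084 of 1843 against 903 of 1891. At the polarized microspore stage it gave 2025 of 3897 higher, against 1782 of 4076. In limma on log2(FPKM + 1), 4364 of 6118 calls were higher at the tetrad, 1314 of 1878 at the free and 1663 of 3678 at the polarized microspore stage. The median log2 change of the 5 regulators was -0.07, -0.16 and 0.14 at the tetrad, free and polarized microspore stages, beside -0.01, -0.02 and 0.00 for all tested genes. Two-sided exact permutation tests on FPKM within stages gave no adjusted p below 0.321 over 15 tests. The smallest unadjusted exact p was 0.0571, where 4 against 4 libraries can reach 0.0286. A lone test at that limit could not fall below 0.05 after adjustment over 15 tests. The adjusted values therefore do not show that heat had no effect.

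**Figure D2:**
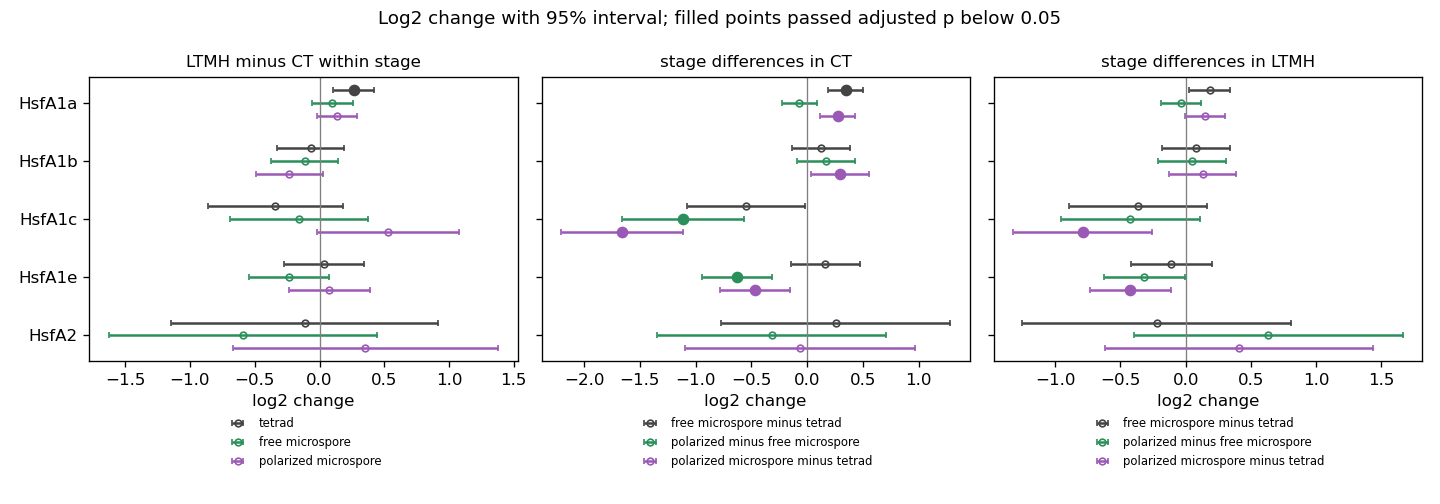
Log2 change (x axis) of the 5 regulators with reads (y axis) for LTMH minus CT at each stage (left), and for the 3 stage differences in CT (middle) and in LTMH (right), with 95% intervals from the fit of 24 libraries; each panel has its own x scale. Filled points passed an adjusted p below 0.05: HsfA1a for heat at the tetrad stage, HsfA1a, HsfA1b, HsfA1c and HsfA1e for at least 1 stage difference in CT, HsfA1c and HsfA1e in LTMH, and no HsfA2 value in this fit, which has no term for the replicate number.

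HsfA2, the heat-induced coactivator of HsfA1, was present at control temperature in every library. It was not called higher or lower in LTMH at any stage, with or without the replicate number in the fit. At the tetrad stage CT libraries 1 to 4 had 2.36, 5.82, 8.18 and 10.8 FPKM, and LTMH libraries 1 to 4 had 2.80, 4.63, 8.37 and 12.5 FPKM. At the free microspore stage these values were 3.92, 8.60, 9.96 and 12.2 FPKM in CT and 2.88, 4.46, 6.52 and 10.6 FPKM in LTMH. At the polarized microspore stage they were 3.17, 5.32, 9.29 and 11.1 FPKM in CT and 7.49, 8.58, 11.6 and 9.72 FPKM in LTMH. CT and LTMH overlapped at every stage, and the highest library of a group was 1.55-fold to 4.57-fold its lowest.

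HsfA2 means were 6.79 ± 3.59 FPKM in CT and 7.06 ± 4.28 in LTMH at the tetrad stage (SD, n = 4 each), 8.67 ± 3.50 and 6.11 ± 3.33 at the free microspore stage, and 7.22 ± 3.62 and 9.35 ± 1.76 at the polarized microspore stage. The log2 change in LTMH was -0.12 ± 0.49 SE at the tetrad stage (95% interval -1.15 to 0.92, edgeR adjusted p = 0.893). For free microspores it was -0.59 ± 0.49 SE (95% interval -1.63 to 0.44, edgeR adjusted p = 0.510), and it was 0.35 ± 0.49 SE at the polarized microspore stage (95% interval -0.67 to 1.38, edgeR adjusted p = 0.674). Leaving out 1 library at a time moved the free microspore value between -0.94 (without LTMH replicate 4) and -0.37 (without LTMH replicate 1), and the polarized microspore value between 0.12 (without CT replicate 1) and 0.67 (without CT replicate 4). At the tetrad stage the log2 change was 0.03 in limma on log2(FPKM + 1). Leaving out 1 library at a time moved the edgeR tetrad value between -0.49 and 0.16, and its sign turned in 4 of 24 such fits.

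The HsfA2 level differed by the replicate number in the labels. The library numbered 1 was the lowest of its group in 6 of 6 groups, and the library numbered 4 was the highest in 5 of 6, the exception being polarized microspore LTMH, where replicate 3 was the highest. Averaged over the 6 groups, HsfA2 stood at 3.77 FPKM in libraries numbered 1, 6.24 in those numbered 2, 8.99 in those numbered 3 and 11.1 in those numbered 4. The standard deviation within groups was 0.754 on the log2 CPM scale, above that of 91.9% of tested genes and against a median of 0.230. With the replicate number as a term beside the 6 groups, chosen as a test after these values were seen, HsfA2 differed between numbers (edgeR F test, adjusted p = 0.000300), ranking 12 among 21429 genes. The same test called 122 genes, or 0.569%, and none of the HsfA1 genes (edgeR adjusted p = 0.365 for HsfA1a, 0.899 for HsfA1b, 0.825 for HsfA1c and 0.609 for HsfA1e). On FPKM, HsfA1a was the highest of its group in the library numbered 4 in 6 of 6 groups, at 14.3 FPKM on average against 12.5, 13.0 and 12.4 for numbers 1 to 3. On TMM-scaled CPM, free microspore LTMH replicate 2 stood above replicate 4, at 31.3 against 30.4. The unadjusted p of HsfA1a for the replicate number term was 0.0155 (edgeR F test). With the replicate number term in the fit, the HsfA2 heat change was -0.62 at the free microspore stage and 0.55 at the polarized microspore stage. Neither was called (edgeR adjusted p = 0.0633 and 0.0642). The labels do not say what a replicate number stands for, and its part in the HsfA2 level was not tested beyond this term.

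**Figure D3:**
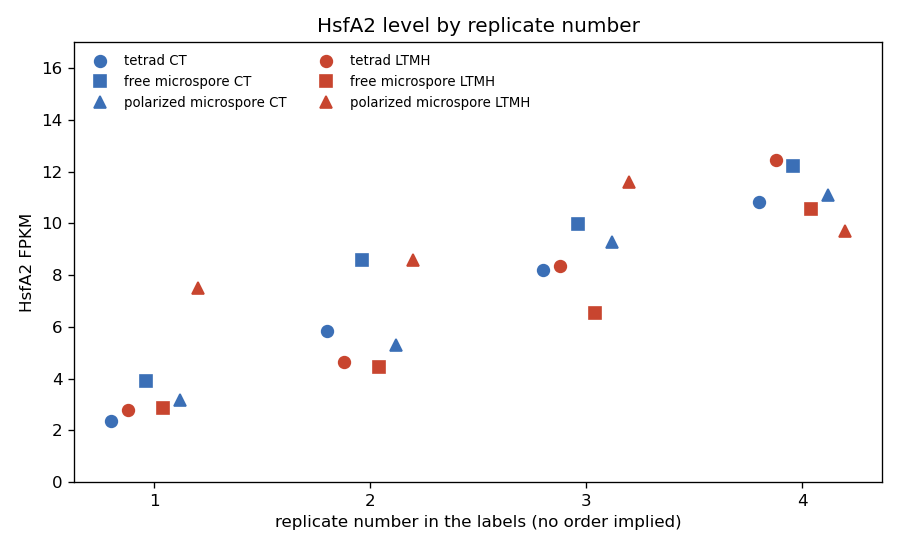
HsfA2 FPKM (y axis, starting at 0) against the replicate number in the labels (x axis, numbers carry no order), with 1 point per library, shaped by stage and coloured by temperature. Libraries numbered 1 lie between 2.36 and 7.49 FPKM and those numbered 4 between 9.72 and 12.5 FPKM. The highest library numbered 1 and the lowest numbered 4 are both from polarized microspore LTMH.

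The genes whose pattern was most like HsfA2 over the 24 libraries were Solyc01g005300.3 and Solyc03g081240.3, with a Pearson correlation of log2 CPM of 0.954 and 0.951. After group means were taken out these were 0.960 and 0.968. Libraries share their depth and scaling factor across genes, and no p is given. Neither gene was called for heat at any stage (edgeR adjusted p from 0.424 to 0.996). Both were called by the replicate number term (edgeR adjusted p = 7.68e-06 and 0.000300), which follows from their choice by likeness to HsfA2 and is no separate result. The highest correlations with another gene were 0.932 for HsfA1a, 0.801 for HsfA1b, 0.923 for HsfA1c and 0.872 for HsfA1e. MBF1c, at 0 throughout, has none.

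HsfA1b, HsfA1c and HsfA1e are close relatives of HsfA1a, and none of them was called for heat at a single stage. HsfA1b had means of 5.65 ± 0.715 FPKM in CT and 6.05 ± 1.16 in LTMH at the tetrad stage (SD, n = 4 each), 6.64 ± 0.931 and 6.42 ± 0.455 at the free microspore stage, and 7.75 ± 0.869 and 6.65 ± 0.737 at the polarized microspore stage. The log2 changes of HsfA1b were -0.07 ± 0.12, -0.12 ± 0.12 and -0.23 ± 0.12 SE (edgeR adjusted p = 0.729, 0.629 and 0.198). The tetrad value was 0.08 in limma on log2(FPKM + 1). HsfA1e had means of 3.00 ± 0.320 and 3.45 ± 0.385, 3.62 ± 0.739 and 3.21 ± 0.535, and 2.43 ± 0.334 and 2.58 ± 0.341 FPKM at the 3 stages, again CT before LTMH. Its log2 changes were 0.03 ± 0.15, -0.24 ± 0.15 and 0.07 ± 0.15 SE (edgeR adjusted p = 0.896, 0.346 and 0.783).

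Among the HsfA1 genes, HsfA1c had the largest spread of fitted heat changes over the 3 stages, and none passed. Its CT libraries had 5.45, 4.31, 5.27 and 3.34 FPKM and its LTMH libraries 4.13, 3.87, 4.72 and 3.57 FPKM at the tetrad stage. At the polarized microspore stage CT libraries had 1.38, 2.41, 1.57 and 1.20 FPKM and LTMH libraries 1.96, 3.70, 1.20 and 2.67 FPKM. The lowest LTMH library there, replicate 3, lay beside the lowest CT library, and the groups overlapped at both stages. The log2 change in LTMH was -0.34 ± 0.25 SE at the tetrad stage (edgeR adjusted p = 0.348), -0.16 ± 0.25 SE for free microspores (edgeR adjusted p = 0.763) and 0.53 ± 0.26 SE for polarized microspores (edgeR adjusted p = 0.168). Without polarized microspore LTMH replicate 3 the last became 0.75 and passed (edgeR adjusted p = 0.0325). The polarized minus tetrad difference in heat effect was 0.87 ± 0.36 SE on the log2 scale for HsfA1c and did not pass (edgeR unadjusted p = 0.0249, adjusted p = 0.165). It was 0.45 in limma on log2(FPKM + 1) and 0.57 without polarized microspore LTMH replicate 2, and it did not pass when any single library was left out. That contrast called 4.09% of all genes (2.71% higher, 1.38% lower) and 0 of the 5 regulators. For the free minus tetrad and polarized minus free differences edgeR called 0 genes. An unadjusted p below 0.05 was reached by 2201 and 1794 genes there, 101 and 102 genes were called by DESeq2, and limma on log2(FPKM + 1) had 7 and 18 calls.

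The HsfA1 genes also differed between stages, in different directions. In CT, HsfA1c, which had its highest mean at the tetrad stage (4.59 ± 0.973 FPKM, SD, n = 4), stood at 3.40 ± 0.324 FPKM in free microspore and 1.64 ± 0.535 FPKM in polarized microspore anthers. It fell by 1.66 on the log2 scale from the tetrad to the polarized microspore stage, to 0.316 of the tetrad level (SE 0.26, edgeR adjusted p = 1.29e-05), and the libraries of these stages did not overlap. Of this, the step from free to polarized microspores had a log2 change of -1.11 ± 0.26 SE (edgeR adjusted p = 0.00201), and the earlier step of -0.55 ± 0.25 SE did not pass (edgeR adjusted p = 0.0862). That step passed without tetrad CT replicate 4 (-0.70, edgeR adjusted p = 0.0356), without polarized microspore LTMH replicate 3 (-0.55, edgeR adjusted p = 0.0430) and in a fit of the compared groups alone (-0.55, edgeR adjusted p = 0.0465). In LTMH the fall from the tetrad to the polarized microspore stage was a log2 change of -0.79 ± 0.25 SE (edgeR adjusted p = 0.0123), from 4.07 ± 0.488 to 2.38 ± 1.06 FPKM. It was not called in an edgeR fit of those 8 libraries alone (-0.79, adjusted p = 0.0562). The difference between these falls is the HsfA1c contrast of heat effects that did not pass.

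HsfA1e was also lower at the last stage. In CT it fell by 0.63 on the log2 scale from free to polarized microspores (SE 0.15, edgeR adjusted p = 0.00214) and by 0.47 from the tetrad to the polarized microspore stage (SE 0.15, edgeR adjusted p = 0.00976). The second call was lost in limma on log2(FPKM + 1) (-0.22, adjusted p = 0.0986) and on log2(FPKM + 0.1) (-0.29, adjusted p = 0.0873). In LTMH the fall from the tetrad to the polarized microspore stage was 0.43 on the log2 scale, a change of -0.43 ± 0.15 SE (edgeR adjusted p = 0.0196). This was lost under upper-quartile scaling (-0.34, edgeR adjusted p = 0.0558), without tetrad LTMH replicate 4 (-0.37, edgeR adjusted p = 0.0618), without polarized microspore LTMH replicate 2 (-0.38, edgeR adjusted p = 0.0572) and without replicate 3 of that group (-0.36, edgeR adjusted p = 0.0667).

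HsfA1a and HsfA1b moved the other way in CT. HsfA1a rose from the tetrad to the free microspore stage by 0.35 ± 0.07 SE on the log2 scale, or 1.27-fold (edgeR adjusted p = 0.00113), and its tetrad and free microspore CT libraries did not overlap. It stayed above the tetrad level at the polarized microspore stage, by 0.28 ± 0.07 SE (edgeR adjusted p = 0.00287). HsfA1b rose from the tetrad to the polarized microspore stage by 0.30 ± 0.12 SE (edgeR adjusted p = 0.0424). That call was lost without tetrad CT replicate 1 (0.22, edgeR adjusted p = 0.149), without tetrad CT replicate 2 or 4 (edgeR adjusted p = 0.0660 and 0.0556) and without polarized microspore CT replicate 4 (0.20, edgeR adjusted p = 0.178). In LTMH neither rise passed as fitted, with log2 changes from the tetrad to the polarized microspore stage of 0.15 ± 0.07 SE for HsfA1a (edgeR adjusted p = 0.0958) and 0.13 ± 0.12 SE for HsfA1b (edgeR adjusted p = 0.389). These LTMH changes were not shown to differ from those in CT, by -0.13 for HsfA1a and -0.17 for HsfA1b (edgeR adjusted p = 0.511 and 0.624). Under upper-quartile scaling the LTMH polarized minus tetrad change of HsfA1a was 0.23 and passed (edgeR adjusted p = 0.0209), as did its free minus tetrad difference of 0.24 (edgeR adjusted p = 0.0328). Both also passed with the replicate number as a block (0.15 and 0.19, edgeR adjusted p = 0.0416 and 0.0346). Without the replicate number in the fit, HsfA2 was not called in any stage difference, with log2 changes from the tetrad to the polarized microspore stage of -0.06 ± 0.49 SE in CT (edgeR adjusted p = 0.922) and 0.41 ± 0.49 SE in LTMH (edgeR adjusted p = 0.503). With the replicate number as a block, HsfA2 passed in LTMH for polarized minus tetrad (0.63 ± 0.20 SE, edgeR adjusted p = 0.0140). It also passed there for polarized minus free microspore (0.81 ± 0.20 SE, edgeR adjusted p = 0.00740). Both calls take a number to mark the same factor in every group, which the labels do not state. Over all genes, 3 of 12 same-numbered CT and LTMH pairs had a correlation over 0.1. Polarized microspore LTMH, part of both differences, had 7.49 FPKM in replicate 1 and its highest level, 11.6 FPKM, in replicate 3. A stage change of HsfA2 therefore rests on that reading of the numbers.

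Stage differences are common in these anthers, and the counts are read against that background. In CT, 1 of 5 regulators was called for free microspore minus tetrad (40.7% of all genes, 19.1% higher and 21.6% lower). For polarized minus free microspore 2 of 5 were called (41.1%, 19.6% higher and 21.4% lower), and for polarized microspore minus tetrad 4 of 5 (63.6%, 31.0% higher and 32.6% lower). In LTMH these counts, in the fit without the replicate number, were 0 of 5 (21.3%, 8.95% higher and 12.4% lower), 0 of 5 (26.0%, 12.1% higher and 13.9% lower) and 2 of 5 (52.9%, 25.5% higher and 27.4% lower). With the replicate number as a block the LTMH counts were 1, 1 and 4 of 5, beside 4742, 5732 and 11471 of 21429 genes. The balance of directions depended on the scaling: under upper-quartile scaling 5814 of 9681 calls for free microspore minus tetrad were higher in CT, against 4100 of 8725, and 2962 of 5286 in LTMH, against 1917 of 4568. In limma on log2(FPKM + 1), 8391 of 13994 calls for polarized microspore minus tetrad in CT were higher, against 6641 of 13619, and 5000 of 8504 for polarized minus free microspore, against 4206 of 8799.

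In the order of group means, HsfA1a ran from free microspore LTMH (14.8 FPKM) through polarized microspore LTMH (14.5), free microspore CT (13.2), polarized microspore CT (13.1) and tetrad LTMH (13.0) to tetrad CT (9.68). HsfA1b was highest in polarized microspore CT and lowest in tetrad CT, HsfA1c highest in tetrad CT and lowest in polarized microspore CT, and HsfA1e highest in free microspore CT and lowest in polarized microspore CT. HsfA2 was highest in polarized microspore LTMH and lowest in free microspore LTMH. For each of these 5 genes, every group overlapped with the next one in its order. The highest group mean was 1.53-fold the lowest for HsfA1a, 1.37-fold for HsfA1b, 2.80-fold for HsfA1c, 1.49-fold for HsfA1e and 1.53-fold for HsfA2.

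The makeup of the summed level of the 4 HsfA1 genes differed between groups. The sum lay between 21.7 and 29.9 FPKM in the 24 libraries, with means of 22.9 ± 1.21 in tetrad CT, 26.6 ± 2.27 in tetrad LTMH, 26.9 ± 1.66 in free microspore CT, 27.6 ± 1.36 in free microspore LTMH, 24.9 ± 1.29 in polarized microspore CT and 26.1 ± 0.739 in polarized microspore LTMH (SD, n = 4 each). HsfA1a made up 42.2 ± 4.28% of it in tetrad CT, 48.9 ± 2.66% in tetrad LTMH, 52.6 ± 0.890% in polarized microspore CT and 55.5 ± 2.84% in polarized microspore LTMH. HsfA1c made up 20.1 ± 4.66% in tetrad CT and 6.57 ± 1.97% in polarized microspore CT. In LTMH its share was 15.5 ± 2.84% at the tetrad and 9.08 ± 3.98% at the polarized microspore stage. HsfA1b held 31.1 ± 2.61% in polarized microspore CT and 25.5 ± 3.51% in polarized microspore LTMH. These shares are descriptions with no test. The level of HsfA2 relative to the HsfA1 sum ran from 0.107 to 0.462 over the libraries.

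**Figure D4:**
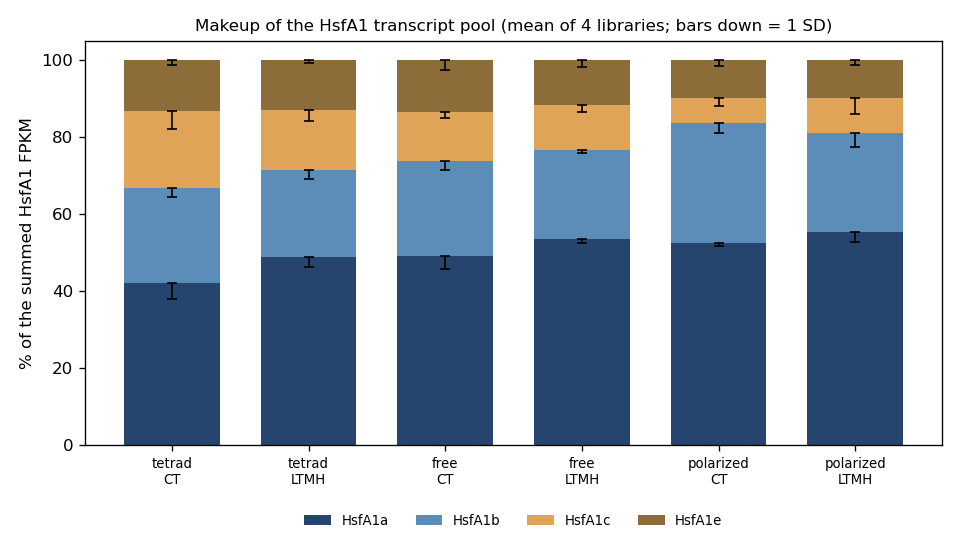
Share of each HsfA1 gene in the summed HsfA1 FPKM (y axis, percent) in the 6 groups (x axis), as stacked means of 4 libraries; each error bar runs 1 SD down from the top of its segment. The HsfA1a segment runs from 42.2% in tetrad CT to 55.5% in polarized microspore LTMH, and the HsfA1c segment from 20.1% in tetrad CT to 6.57% in polarized microspore CT.

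After group means were taken out, the regulators had the following correlations with each other. Over 24 libraries HsfA2 had a Pearson correlation of 0.41 with HsfA1a (Spearman 0.44) and 0.42 with HsfA1b (Spearman 0.47), and of -0.39 with HsfA1e (Spearman -0.28) and -0.24 with HsfA1c (Spearman -0.29). HsfA1b and HsfA1c had -0.46 (Spearman -0.53), and HsfA1c and HsfA1e 0.10 (Spearman 0.06). Libraries share depth and scaling across genes, so these are descriptions with no p.

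Other genes of the heat response were looked at through lists of identifiers from general knowledge, chosen with earlier results of these data known. The tables do not pair these identifiers with names, so they are given as counts only. These counts are descriptions and no independent result. Whether the listed genes act downstream of the regulators was not tested. In a list of 18 identifiers put together for heat-responsive chaperones, 15 were tested. Of these, 4 were higher and 2 lower in LTMH at the tetrad stage, 5 higher and 0 lower at the free microspore stage, and 6 higher and 0 lower at the polarized microspore stage. The shares of all genes called higher and lower were 8.23% and 12.9%, 4.21% and 4.61%, and 8.32% and 10.7%, and their balance depended on the scaling. The other 9, 10 and 9 of the 15 were not called. The median log2 change of the list was 0.48, 0.43 and 0.38 at the 3 stages, beside -0.01, -0.02 and 0.00 for all tested genes. Single genes of the list ran from -1.10 to 2.82, from -2.41 to 2.27 and from -1.58 to 3.15. In a list of 7 identifiers put together for other heat stress factors, 5 were tested. At each stage 1 of them was higher, and 1 was lower at the tetrad stage. The median log2 change of that list was 0.12, 0.19 and 0.26.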

How the data were processed

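Poly-A RNA of tomato anthers was sequenced in 24 libraries (6 groups of 4), grouped and numbered by the labels. The authors deposited raw counts of reads per gene, and FPKM values for each library too. Per the submitters' processing notes, the tools were HTSeq 0.6.1 and TopHat2 2.0.12; the build is not given in the sources used here. Library preparation is not stated to keep strand, so antisense or overlapping genes and near-identical copies may share reads. The RefSeq gene list (41476 genes) matched 0 of 35768 identifiers. The 6 genes and the lists were chosen with earlier results of these data known.

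The count model was edgeR's (4.0.16, in R 4.3.3), over all 24 libraries in 6 groups, with TMM scaling, filterByExpr (minimum count 10) and robust quasi-likelihood dispersion. Benjamini-Hochberg adjustment ran over 21429 genes per contrast, with calls below 0.05 and no minimum fold. Standard errors come from the F statistic, and 95% intervals use 18 degrees of freedom. Log2 CPM values use a prior count of 2. All 6 genes are named by rule, with the 2 genes most correlated with HsfA2. Exact permutation tests (scipy 1.17.1) used 70 arrangements of FPKM; 15 tests were possible because MBF1c was at 0. Limits for a count of 0 cover counting error only. The replicate number term was added after HsfA2 values were seen. The scripts were tested on simulated counts. Alternatives were median-of-ratios (RLE) and upper-quartile scaling, DESeq2 1.42.0, limma 3.58.1 on log2 FPKM with a pseudocount of 1 or 0.1, other filters, the replicate block, a fit of the compared groups, and leaving out each library.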

Additional observations from a re-analysis of the deposited data

Results flagged for a closer look

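HsfA1a in tetrad CT had 1 library, replicate 4, far above the others, at 11.6 FPKM against 8.89 to 9.15, and the gap made up 0.903 of the range of the group. HsfA1e in free microspore CT had 1 library, replicate 1, far above the others, at 4.71 FPKM against 3.11 to 3.37, and the gap made up 0.838 of the range. Both shares lie above Dixon's 95% limit for 4 libraries. Of 30 groups examined 2 stood out, where chance gives about 1 in 20. Without tetrad CT replicate 4 the log2 change of HsfA1a in LTMH was 0.33 (edgeR adjusted p = 0.00421). Without free microspore CT replicate 1 the log2 change of HsfA1e in LTMH was -0.09 (edgeR adjusted p = 0.780).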

How the results depend on the processing

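The heat changes of the 5 regulators at the free and polarized microspore stages kept their direction and stayed uncalled under every other scaling, filter, tool and model run with all 24 libraries or the compared groups. In an edgeR fit of the compared groups alone the HsfA1a tetrad change was 0.31 (adjusted p = 0.0569). In limma on log2(FPKM + 1) and log2(FPKM + 0.1), the tetrad heat change became 0.078 and 0.089 for HsfA1b and 0.029 and 0.036 for HsfA2, the mean heat change of HsfA1e 0.029 and 0.039, the CT polarized minus tetrad change of HsfA2 0.10 and 0.12, the polarized minus free difference in heat effect of HsfA1a -0.019 and -0.020, and the polarized minus tetrad difference of HsfA1e -0.092 and -0.11. Under upper-quartile scaling the mean heat change of HsfA1e was 0.0020 and the CT polarized minus tetrad change of HsfA2 0.042. The log2 ratio of tetrad levels was -0.069 for HsfA1b and -0.11 for HsfA2 on TMM-scaled CPM. The cause of these shifts was not tested. The HsfA1b rise in CT was also lost at a mean of at least 1 CPM (0.28, edgeR adjusted p = 0.0548) and in the compared groups alone (0.29, edgeR adjusted p = 0.0792). Gene counts moved by over 1.5 times in the compared groups alone (506 against 1891 for heat at the free microspore stage; 1516 against 876 for the polarized minus tetrad difference), and for that difference in DESeq2 (1723) and limma (2312 and 2155). Leaving out 1 library gave tetrad heat changes of 0.23 to 0.33 for HsfA1a, -0.031 to 0.11 for HsfA1e and -0.49 to 0.16 for HsfA2, a polarized microspore heat change of 0.23 to 0.76 for HsfA1c, and mean heat changes of -0.090 to 0.088 for HsfA1c and -0.075 to 0.0075 for HsfA1e. Differences in heat effect ran from -0.13 to 0.063 for HsfA1b (free minus tetrad), -0.00016 to 0.075 for HsfA1a (polarized minus free) and -0.035 to 0.11 for HsfA1e (polarized minus tetrad). Stage changes of HsfA2 ran from -0.022 to 0.53 (CT, free minus tetrad), -0.37 to 0.21 (CT, polarized minus tetrad) and -0.58 to 0.15 (LTMH, free minus tetrad), and that of HsfA1b from -0.0044 to 0.13 (LTMH, polarized minus free). Log2 ratios of FPKM levels ran from -0.043 to 0.17 (tetrad) and -0.13 to 0.025 (free microspore) for HsfA1b and from -0.37 to 0.37 for HsfA2 (tetrad). Same-numbered CT and LTMH libraries had correlations of -0.380 to 0.351 in their deviations from group means. Of 12 pairs 3 were over 0.1, and 2 of 12 CT libraries correlated best with their own number. This check runs over all genes and within a stage, so it cannot decide whether a number marks a factor that moves few genes. The replicate number term, added after HsfA2 values were seen, called 122 of 21429 genes, HsfA2 among them. With the replicate number as a block, 1, 1 and 4 of 5 regulators were called for the LTMH stage differences (free minus tetrad, polarized minus free, polarized minus tetrad), the SE of HsfA2 for polarized minus tetrad was 0.20, and the HsfA1a tetrad change was 0.26 (edgeR adjusted p = 0.00504). HsfA2 in LTMH passed for polarized minus free microspore (0.81, edgeR adjusted p = 0.00740) and polarized minus tetrad (0.63, edgeR adjusted p = 0.0140), as did HsfA1a in LTMH for free minus tetrad (0.19, edgeR adjusted p = 0.0346) and polarized minus tetrad (0.15, edgeR adjusted p = 0.0416), while HsfA1b in CT did not (0.29, edgeR adjusted p = 0.0526). HsfA2 heat changes with the block were -0.62 and 0.55 at the free and polarized microspore stages (edgeR adjusted p = 0.0633 and 0.0642), and 4703 genes were called for heat at the tetrad stage. MBF1c had no reads, and the level given for a count of 0 holds only if reads of this locus were counted, which was not tested.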
